A study of Mus musculus with 14 samples.

Results

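The *Sst*-high pontine neurons were 1335 cells from the 2 libraries of dissected pontine nuclei (PN) at postnatal day (P) 5, 809 from replicate 1 and 526 from replicate 2. They were chosen by raw UMI (unique molecular identifier) counts per cell. A cell with at least 1000 genes and under 10% mitochondrial UMIs was gated as a PN neuron if it held at least 20 *Mapt* UMIs, at least 1 UMI each of *Slc17a6* and *Barhl1*, and no *En2*. Of these it was *Sst*-high with at least 25 *Sst* UMIs, at most 1 UMI each of *Nr2f2*, *Etv1* and *Hoxb5*, and at most 4 of *Cdkn1c*. The gate held 5005 neurons of 11300 kept cells in replicate 1 and 3069 of 6608 in replicate 2, so *Sst*-high cells made up 16.2% (95% Clopper-Pearson interval, 15.2 to 17.2%) and 17.1% (15.8 to 18.52%) of gated neurons. These intervals cover counting error only. The whole series held 122658 cells that passed the same quality limits.

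The series profiled sorted tdTomato+ cells by 3′ droplet single-cell RNA sequencing in 14 libraries from C57BL/6J mice. The P5 libraries and 3 of the 6 libraries from hindbrain at E18.5 (E, embryonic day) were controls, *Atoh1Cre/+; Rosa lsl-tdTomato/+*. The other 3 E18.5 libraries, *Atoh1S193A/-*, carried the hypomorphic S193A allele over the same Cre allele. The 6 libraries of E14.5 hindbrain, 3 control and 3 *Atoh1S193A/-*, were used only to count cells that met the rule. Cre replaces the *Atoh1* coding region, so the controls also had a null copy of *Atoh1*. The sort aimed at the *Atoh1* lineage, but the P5 libraries also held cells with microglial, astrocyte or oligodendrocyte-lineage markers, 528 and 470 of them microglia. Each P5 library pooled 11 to 13 pups, so animals within a library cannot be told apart. No mutant P5 library was analysed here.

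PN neurons are glutamatergic neurons that send mossy fibers to the cerebellum and relay cortical input to granule cells. They arise from *Atoh1*+ progenitors of the rhombic lip and migrate to the ventral pons. *Sst* encodes somatostatin, a peptide stored in dense-core vesicles that acts on inhibitory G protein-coupled receptors. In the forebrain it marks a class of GABAergic interneurons. *Pnoc* encodes the precursor of nociceptin, *Ebf1* an early B cell factor transcription factor, and *Sostdc1* a secreted antagonist of BMP and WNT signaling.

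*Sst* spans chr16:23889573-23890958 on the minus strand of GRCm38. The *Sst* promoter is shown because its transcript chose the cells, and those of *Slc18a3* and *Chat* because their transcripts were high with *Sst* at both ages described below. Each sequence runs 5′ to 3′ from 250 bases before to 50 after the start (RefSeq, GRCm38.p6, minus strand), at chr16:23890795-23891094, chr14:32464801-32465100 and chr14:32465860-32466159. Capitals mark the cAMP response element (CRE) TGACGTCA in *Sst*, the site known from classic work on this promoter, and its core CGTCA in the other two.
Sst: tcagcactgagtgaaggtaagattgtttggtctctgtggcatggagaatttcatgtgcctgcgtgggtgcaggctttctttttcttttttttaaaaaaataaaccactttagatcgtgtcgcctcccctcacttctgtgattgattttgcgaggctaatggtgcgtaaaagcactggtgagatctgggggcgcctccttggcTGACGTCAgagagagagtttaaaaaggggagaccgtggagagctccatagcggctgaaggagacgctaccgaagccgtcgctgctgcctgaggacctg
Slc18a3: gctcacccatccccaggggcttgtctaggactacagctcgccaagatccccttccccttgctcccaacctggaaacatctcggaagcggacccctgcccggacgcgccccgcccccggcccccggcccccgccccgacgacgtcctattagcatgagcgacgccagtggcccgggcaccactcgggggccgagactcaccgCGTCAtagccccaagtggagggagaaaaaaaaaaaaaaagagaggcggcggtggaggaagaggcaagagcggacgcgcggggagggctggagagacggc
Chat: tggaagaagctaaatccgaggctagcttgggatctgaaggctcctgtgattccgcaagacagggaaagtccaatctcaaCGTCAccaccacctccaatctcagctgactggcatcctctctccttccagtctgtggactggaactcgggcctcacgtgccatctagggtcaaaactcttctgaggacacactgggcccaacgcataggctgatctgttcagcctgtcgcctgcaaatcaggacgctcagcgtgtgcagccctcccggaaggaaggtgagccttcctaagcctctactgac
Relative to the start, the first capital stands at -48 in *Sst*, -49 in *Slc18a3* and -171 in *Chat*. The full element was in 1.79% and the core, as CGTCA or TGACG on the plus or minus strand, in 20.8% of 32851 promoters of this length. A full element also counts as holding the core. The promoter of *Pcp4*, whose transcript was also high with *Sst* at both ages, was searched too and held neither the full element nor the core. These matches are descriptions of letters and not of binding.

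*Sst* itself reached 2169 and 2461 CPM (UMIs of a gene per 1000000 UMIs of the class) in the *Sst*-high cells of replicates 1 and 2. A cell held 25 to 254 *Sst* UMIs in replicate 1 (median, 54) and 25 to 396 in replicate 2 (median, 67). The gated neurons without 25 *Sst* UMIs were divided by the same genes into cells with *Cdkn1c*, *Hoxb5*, *Nr2f2* or *Etv1* alone and cells with no marker. Another 871 and 579 gated neurons held more than 1 of the markers, 372 and 266 of them with 25 *Sst* UMIs, and are in none of these classes. Their *Sst* levels ran from 56.0 and 50.1 CPM in *Cdkn1c* neurons through 207 and 194 CPM in no-marker neurons to 274 and 261 CPM in *Etv1* neurons. These values follow from the rule. Cells that should lack *Sst* also held its UMIs: 32.6% and 14.9% of microglia had at least 1, at median depths of 10151 and 10172.5 UMIs, with 40.0 and 19.4 CPM. In *Cdkn1c* neurons the shares were 55.8% and 42.8% at median depths of 26536.5 and 30114 UMIs. After thinning to 5000 UMIs a cell, 17.9% and 7.51% of microglia and 19.6% and 16.8% of *Cdkn1c* neurons held *Sst*. In replicate 1 the *Cdkn1c* neurons thus stood close to the background.

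**Figure D1:**
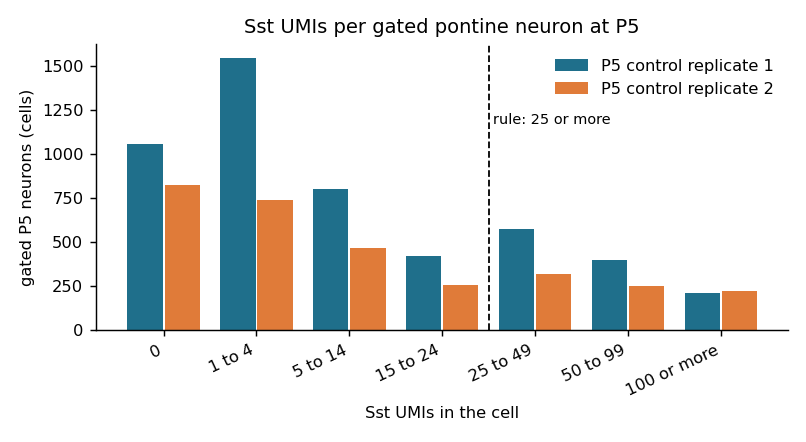
Number of gated P5 neurons (bars, from 0) in bins of *Sst* UMIs per cell, by library, with the limit of 25 UMIs as a dashed line. Replicate 1 has 420 cells with 15 to 24 UMIs and 573 with 25 to 49 in bins of unequal width, and no bin is empty.

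The gate required *Barhl1*, a homeobox gene of the *Atoh1* lineage at 196 and 200 CPM, and *Slc17a6*, the glutamate transporter VGLUT2 at 229 and 260 CPM, so these do not check the label of PN neurons. *Pax6*, which the rule did not use, had a UMI in 80.6% and 77.9% of the cells and *Hoxb3* in 91.5% and 90.3%. Background shares of *Pax6* and *Hoxb3* in microglia or other non-neuronal cells were not measured. *Slc17a7* (VGLUT1), also not used, was at 41.9 and 39.5 CPM. The genes of inhibitory transmission were low in these cells. *Gad1* stood at 0.118 and 0.534 CPM, and *Slc32a1*, the vesicular GABA and glycine transporter, at 0.158 and 2.62 CPM. *Gad2* was detected at 21.8 and 23.4 CPM, against 47.1 and 47.0 CPM in no-marker neurons. Of 10 transcription factors and adhesion genes of forebrain *Sst* interneurons, 1 reached 10 CPM: *Satb1*, at 31.4 and 29.1 CPM, near the 36.0 and 30.0 CPM of no-marker neurons. *Nkx2-1*, *Dlx1* and *Dlx2* were at 0 in both libraries.

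Markers of other cells were summed over each list. The 8 microglial markers summed to 73.7 and 66.8 CPM, within the 28.1 to 146 CPM of the other 5 classes. The 8 astrocyte markers summed to 213 and 126 CPM against 145 to 602 CPM, so replicate 2 lay below that range. The 6 unipolar brush cell markers summed to 429 and 431 CPM against 318 to 674 CPM, *Calb2* making up 377 and 385 CPM with *Eomes* at 0.986 and 0.320 CPM, and 8 oligodendrocyte-lineage markers to 284 and 233 CPM against 130 to 678 CPM. The 5 granule cell markers besides *En2* and *Etv1*, which the rule limited, summed to 4.93 and 4.38 CPM. High doublet scores (the top 7.5% of a library) fell on 5.69% and 7.99% of *Sst*-high cells and on 19.4% and 16.9% of the cells that had 25 *Sst* UMIs together with another marker, which the rule left out. The 2 libraries resembled each other. The median absolute log2 difference between them within *Sst*-high cells was 0.12 over 8453 genes, and 10 genes (0.118%) differed by over 2-fold.

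Because *Sst* and the other markers chose the cells, the P5 levels are descriptions without a test. A gene was counted as raised when it was at least 2-fold higher in *Sst*-high cells than in each of the other 5 classes in both libraries, on a scale of CPM + 1. Of 8241 genes at 10 CPM or more in *Sst*-high cells, 7 (0.0849%) were raised: *Pnoc*, *Gm11549*, *Ebf1*, *Galr1*, *Aldh1a1*, *Prdm6* and *Col11a1*. *Gm11549*, *Galr1* and *Prdm6* averaged under 10 CPM over the other classes in both libraries, so they entered through the *Sst*-high cells alone. Of 8239 genes at 10 CPM or more on average over the other classes, 1 (0.0121%) was lowered by the same rule, *Phlda1*. On a scale of CPM + 10 only 2 of the 7 passed the same limit, and replicates 1 and 2 alone gave 9 and 14 raised genes, all 7 among them. By any amount, 696 of 8453 genes (8.23%) were higher than in each class in both libraries and 366 (4.33%) lower. The other classes still held *Sst*-expressing cells below the limit. With those restricted to cells with at most 4 *Sst* UMIs, 12 genes were raised, namely the same 7 with *Brinp2*, *Chat*, *Hapln1*, *Sostdc1* and *Vstm2l*. That alternative was chosen after the values were seen.

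*Pnoc* (chr14:65400673-65425472, minus strand) stood out most. It reached 140 and 152 CPM in *Sst*-high cells, against 35.1 and 37.4 CPM in no-marker neurons. *Etv1* neurons held 16.5 and 23.8 CPM, and *Hoxb5* neurons 1.89 and 5.23 CPM. Its geometric mean fold over the 5 classes was 12.1, and the smallest single fold was 3.91. The mean fold depended on the setting. On the log2 scale it was 3.60 as given and 2.77 on a scale of CPM + 10. It was 4.54 with other classes at 4 *Sst* UMIs or fewer and 5.37 in cells of 8000 to 20000 UMIs. *Pnoc* was not in every cell: 53.2% and 49.8% of *Sst*-high cells had a UMI, against 2.84% and 1.70% of microglia.

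*Ebf1* (chr11:44617317-45008091, plus strand) was the most abundant of the raised genes and was present in almost all cells, 97.8% and 95.8%. It reached 733 and 636 CPM, against 269 and 211 CPM in no-marker neurons and 150 and 111 CPM in *Hoxb5* neurons. Its lowest levels were in *Cdkn1c* neurons, 45.6 and 29.5 CPM. Its paralogs were near the floor in the *Sst*-high cells. *Ebf2* was at 3.12 and 3.04 CPM, *Ebf3* at 1.30 and 1.44 CPM and *Ebf4* at 4.06 and 3.04 CPM.

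*Sostdc1* (chr12:36314139-36318452, plus strand) was higher in *Sst*-high cells than in each class, but by less than 2-fold over the nearest. It reached 117 and 108 CPM, against 64.3 and 70.5 CPM in no-marker neurons and 15.5 and 12.3 CPM in *Cdkn1c* neurons. Of the 4 genes that name these cells, it therefore separated them least from the no-marker neurons, with a smallest fold of 1.52.

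Among the other raised genes, *Galr1*, a receptor for galanin, was at 40.4 and 30.4 CPM against 13.99 and 10.8 CPM in no-marker neurons. *Aldh1a1* (chr19:20492715-20643465), a retinaldehyde dehydrogenase, was at 73.6 and 57.1 CPM against 30.1 and 26.5 CPM. *Prdm6*, a PR-domain transcriptional repressor, was at 33.98 and 34.7 CPM against 16.0 and 15.4 CPM. *Col11a1* and *Gm11549* likewise had no-marker neurons as their nearest class. *Col11a1* (chr3:114030540-114220718), a fibrillar collagen chain, was at 89.5 and 84.7 CPM against 43.5 and 30.3 CPM. *Gm11549* (chr3:36515057-36521813) was at 22.5 and 20.5 CPM against 6.69 and 6.12 CPM. The lowered gene, *Phlda1* (chr10:111506286-111508645), a pleckstrin homology-like domain gene, was at 31.6 and 35.5 CPM. No-marker neurons held 97.2 and 105 CPM of it and *Nr2f2* neurons 217 and 236 CPM.

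**Figure D2:**
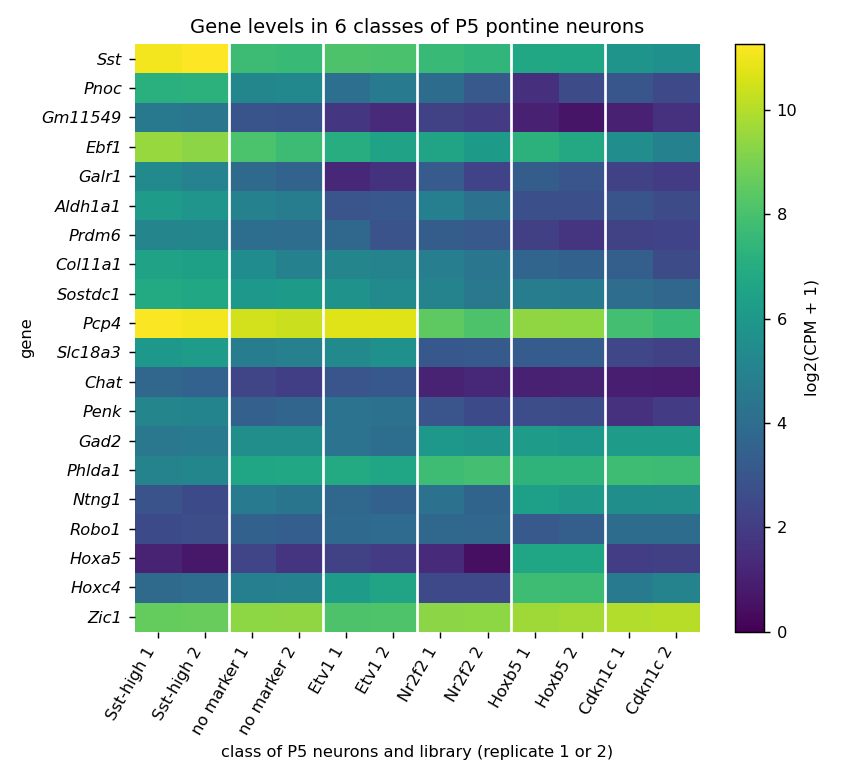
Heat map of log2(CPM + 1) for 20 genes in *Sst*-high cells and the other 5 classes of gated P5 neurons, with 1 column for each class and library. The *Sst*-high columns are brightest in *Pnoc*, *Ebf1* and the other raised genes, and in *Phlda1* they are the darkest.

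Gene groups were described by counts and by their median log2 difference from the mean of the 5 classes, beside 0.02 for all 8453 genes at 10 CPM or more in either. Of those 8453 genes, 8.23% were higher than in each class and 4.33% lower, and the counts of each group stand beside these shares. Some genes, *Chat* and *Penk* among them, averaged under 10 CPM over the other classes. They entered through the *Sst*-high cells alone, which favored higher counts and medians. Others, such as *Nppc*, entered through the other classes alone. All 4 cholinergic genes were expressed, with a median of 1.08, and 2 were higher than in each class. *Slc18a3* (chr14:32462438-32464850), the vesicular acetylcholine transporter, was at 63.6 and 71.7 CPM. It stood at 39.3 and 50.1 CPM in *Etv1*, 26.4 and 29.4 CPM in no-marker and 4.23 and 3.60 CPM in *Cdkn1c* neurons. *Chat* (chr14:32408203-32465989), the enzyme that makes acetylcholine, was at 12.02 and 10.6 CPM against 6.91 and 7.55 CPM in *Etv1* and 4.07 and 3.29 CPM in no-marker neurons. *Slc18a3* lies inside *Chat* on the same strand, so the split of reads between them is uncertain. *Slc5a7*, the choline transporter, was at 59.8 and 51.0 CPM, and *Ache*, acetylcholinesterase, at 45.9 and 60.6 CPM. Their mean folds over the 5 classes, 0.943 and 1.17, lay near 1.

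Of 38 neuropeptide precursor genes, 8 besides *Sst* were at 10 CPM or more there or in the other classes, with a median log2 difference of 0.59. *Penk*, the enkephalin precursor, was higher than in each class at 33.8 and 33.0 CPM, against 18.4 and 17.2 CPM in *Etv1* neurons, the nearest class, and 10.1 and 11.9 CPM in no-marker neurons. *Vgf* was the most abundant of the 8, at 184 and 225 CPM, and *Nxph4* was at 94.0 and 86.0 CPM. *Adcyap1*, the PACAP precursor, was at 57.8 and 70.7 CPM but was higher still in *Etv1* neurons, at 82.2 and 90.8 CPM. *Calca*, the precursor of calcitonin gene-related peptide, was at 19.3 and 22.3 CPM, and *Gal*, the galanin precursor, at 16.0 and 14.4 CPM. *Nppc*, the precursor of C-type natriuretic peptide, was lower than the mean of the classes, at 5.40 and 6.03 CPM. Besides *Sst*, *Pnoc* and *Penk* were thus the peptide genes that were higher than in each class. The genes that process peptides and build dense-core granules had a median of 0.06 over 11 expressed genes, and 0 of them were higher than in each class. Of the peptide receptors, *Galr1* and *Grpr*, the receptor for gastrin-releasing peptide, were higher than in each class, *Grpr* at 17.3 and 14.53 CPM. *Oprl1*, the nociceptin receptor, was lower than in each class, at 18.8 and 22.2 CPM.

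Among 38 expressed transcription factors, the median was 0.06, with 6 higher and 2 lower than in each class, against 8.23% and 4.33% of all genes. *Prdm6* and *Tshz2*, a zinc-finger homeobox gene, had the highest folds, and *Tshz2* was at 22.4 and 20.2 CPM against 14.9 and 12.7 CPM in *Etv1* and 7.47 and 6.81 CPM in no-marker neurons. *Prox1*, a homeobox gene, had the lowest, at 3.63 and 2.83 CPM against 68.8 and 57.4 CPM in *Cdkn1c* neurons. The 8 expressed *Hox* genes had a median of -0.24. *Hoxa5*, which the rule did not use, was at 1.18 and 0.641 CPM, against 101 and 96.1 CPM in *Hoxb5* neurons, while *Hoxb3* at 112 and 98.8 CPM and *Hoxb2* at 38.9 and 40.4 CPM were shared by all classes. The rule limited *Hoxb5* in the *Sst*-high cells.

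Of 19 expressed genes for secreted signals and antagonists, 5 were higher than in each class, against 8.23% of all genes, with a median of 0.69. *Sostdc1* led this list. *Cxcl12*, a chemokine, was at 38.8 and 40.6 CPM, near the 41.3 and 48.3 CPM of *Etv1* neurons, and *Grem1*, a BMP antagonist, at 6.86 and 4.65 CPM against 16.0 and 12.1 CPM in no-marker neurons. Of the retinoid genes, *Aldh1a1* was the 1 of 3 at 10 CPM or more that was higher than in each class. *Cyp26b1*, which degrades retinoic acid, fell short of 10 CPM in replicate 2 and was outside that count, at 11.9 and 9.24 CPM against 5.16 and 1.59 CPM in *Nr2f2* neurons. Among 26 axon guidance and Eph genes, 3 were higher and 4 lower than in each class, against 8.23% and 4.33% of all genes, with a median of -0.04. *Ephb1*, an Eph receptor, was at 154 and 146 CPM against 119 and 117 CPM in *Etv1* neurons, the nearest class. *Ntng1*, the adhesion protein netrin-G1, was at 6.27 and 4.86 CPM against 12.8 and 10.3 CPM there. Of 16 cadherin genes, *Pcdh10*, a protocadherin, was higher than in each class at 314 and 297 CPM against 285 and 245 CPM in *Etv1* neurons. *Pcdh19*, another, was lower than in each class at 101 and 91.7 CPM.

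Among 30 glutamate and GABA receptor genes, 3 were higher and 2 lower than in each class, shares close to those over all genes. *Grik4*, a kainate receptor subunit, was at 10.1 and 10.8 CPM against 6.89 and 6.30 CPM in no-marker neurons, and its relative *Grik2* at 7.29 and 6.83 CPM against 14.1 and 13.8 CPM there and 9.76 and 13.7 CPM in *Nr2f2* neurons. Of the calcium-binding genes, *Pcp4*, which encodes a small calmodulin-binding protein, was the most abundant and the only one of 11 higher than in each class, at 2326 and 2167 CPM. *Etv1* neurons held 1701 and 1696 CPM of it and *Cdkn1c* neurons 235 and 190 CPM. Immediate early genes had a median of -0.01 over 11 genes, and 0 of them were higher or lower than in each class. A list of 10 top markers of the PN1 subtype was used as well. Besides *Sst*, 9 of them were expressed and 6 were higher than in each class. The list was drawn up on these libraries and is not independent evidence.

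The *Sst* limit fell within a graded population. Among gated neurons with no other marker, replicate 1 held 360 cells with 0 *Sst* UMIs, 563 with 1 to 4, 427 with 5 to 14, 240 with 15 to 24, 368 with 25 to 49, 287 with 50 to 99 and 154 with 100 or more. *Ebf1* was higher in each bin than in the one before, running from 89.4 to 894 CPM in replicate 1 and from 50.2 to 799 CPM in replicate 2. *Phlda1* ran downward, from 140 to 22.3 CPM and from 148 to 28.6 CPM. *Sostdc1* did not follow the same course. In replicate 1 it was at 21.0 CPM in cells without *Sst* UMIs, highest at 129 CPM with 25 to 49 UMIs, and at 82.3 CPM with 100 or more. In replicate 2 it was at 22.7, 134 and 89.3 CPM in the same bins. *Pnoc* was at 7.64 and 1.05 CPM without *Sst* UMIs and at 164 and 138 CPM with 100 or more. In replicate 2 it was at 136 CPM with 25 to 49 UMIs and highest at 181 CPM with 50 to 99. Median UMIs per cell lay between 25529 and 30772.5 over the bins of replicate 1 and between 29066 and 35434 in replicate 2.

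**Figure D3:**
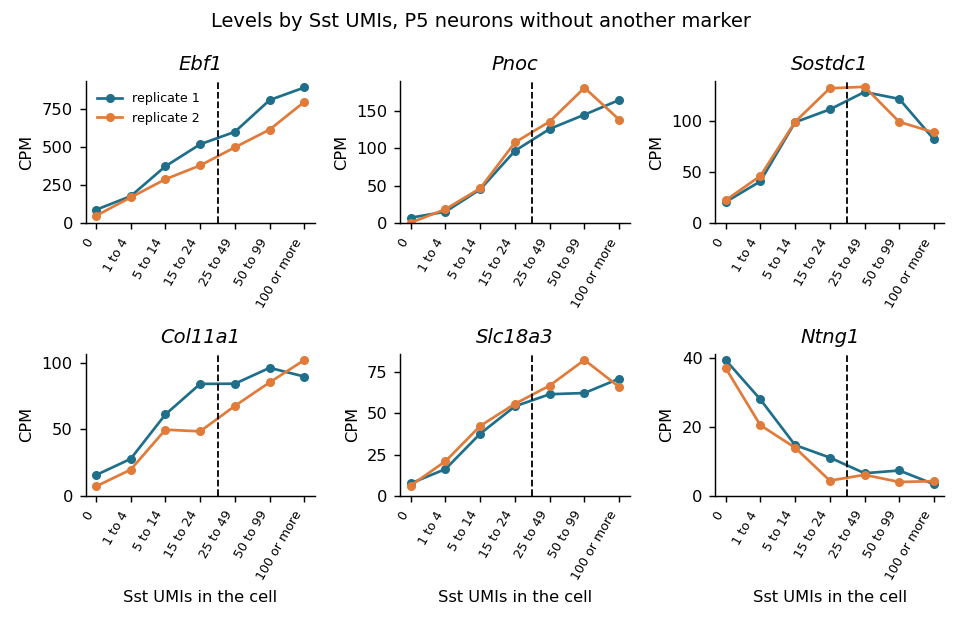
CPM of 6 genes in gated P5 neurons with no other marker, by *Sst* UMIs per cell, with 1 line for each of the 2 libraries and the limit of 25 UMIs dashed. *Ebf1* climbs through the limit, *Sostdc1* is highest in the middle bins, and *Ntng1* runs from 39.5 and 37.1 CPM without *Sst* to 3.42 and 4.32 CPM with 100 or more UMIs.

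The cells just inside and just outside the limit were compared in a few named genes. The 240 and 135 cells with 15 to 24 *Sst* UMIs held 520 and 381 CPM of *Ebf1*, and the 188 and 98 *Sst*-high cells with 25 to 34 UMIs held 583 and 451 CPM. *Pnoc* was at 96.8 and 108 CPM outside and 96.3 and 138 CPM inside. *Sostdc1* was at 112 and 133 CPM outside and 119 and 116 CPM inside, and *Slc18a3* at 54.2 and 55.7 CPM outside and 55.1 and 59.1 CPM inside. *Chat* was at 6.72 and 6.93 CPM outside and 11.3 and 9.26 CPM inside.

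The *Sst*-high cells were further split by *Pnoc*. The 265 and 185 cells with at least 5 *Pnoc* UMIs were compared with the 379 and 264 cells without any. Cells with some *Pnoc* UMIs but fewer than 5 were left out. Of 8441 genes at 10 CPM or more in either group in both libraries, 12 (0.142%) were at least 2-fold higher in both. Another 15 (0.178%) were at least 2-fold lower. Some genes, *Syt2* and *Inhbb* among them, reached 10 CPM only in the group where they were higher, which favored them. *Syt2*, a calcium sensor of vesicle release, was at 19.96 and 12.4 CPM in *Pnoc*+ cells against 3.11 and 3.74 CPM without. *Inhbb*, an activin and inhibin subunit, was at 15.7 and 13.8 CPM against 5.31 and 3.85 CPM, and *Dkk2*, a secreted WNT modulator, at 83.1 and 62.9 CPM against 35.1 and 26.0 CPM. The raised *Gm11549* was at 35.3 and 34.3 CPM against 11.1 and 10.6 CPM. Among the 15 genes lower with *Pnoc* was the astrocyte marker *Slc1a3*, at 17.7 and 11.98 CPM with and 39.9 and 38.8 CPM without, and its part in the split was not tested. *Lsamp*, a cell adhesion molecule of the immunoglobulin family, was at 62.4 and 66.0 CPM with *Pnoc* and 176 and 181 CPM without. *Reln*, the secreted glycoprotein reelin, was at 13.7 and 10.8 CPM with and 33.9 and 31.5 CPM without, and *Nrp2*, a semaphorin receptor, at 22.3 and 16.8 CPM with and 52.1 and 46.6 CPM without. *Slc18a3* was at 85.6 and 96.7 CPM with and 41.8 and 51.2 CPM without, but it fell short of 2-fold in replicate 2 and is not among the 12 genes. Median UMIs per cell were 29473 and 32888 with *Pnoc* and 30774 and 34429 without. The split was made on a measured gene in the same cells and has no test, and genes other than *Pnoc* were named here after their values were seen.

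At E18.5, cells meeting the P5 rule were few: 8, 8 and 15 in the control libraries and 11, 7 and 13 in the *Atoh1S193A/-* libraries, or 1.29 to 2.02% of gated neurons. At E14.5 each library held 4 or fewer. Before the limits on *Nr2f2*, *Etv1*, *Hoxb5* and *Cdkn1c*, more gated neurons held at least 25 *Sst* UMIs. They numbered 28 to 46 in an E14.5 library and 15 to 51 in an E18.5 library. At P5 the same limits took 1181 cells to 809 in replicate 1 and 792 to 526 in replicate 2. To ask whether the genes that went with *Sst* at P5 also did so in libraries the rule had not used, E18.5 neurons that passed the gate and held at least 1 UMI of *Pax6* and, together, of *Hoxb2* to *Hoxb5* were divided by *Sst* alone. The control libraries held 60, 57 and 146 neurons with at least 3 *Sst* UMIs and 248, 222 and 451 with none, and the *Atoh1S193A/-* libraries 97, 43 and 95 with and 249, 138 and 254 without. UMIs were summed per library and class and compared within libraries by edgeR's quasi-likelihood test with Benjamini-Hochberg adjustment. A call needed an adjusted p under 0.05 and a log2 difference of over 0.25 in size. Of 10408 genes, 617 (5.93%) were higher with *Sst* and 646 (6.21%) lower. The tissue was whole hindbrain. Markers of unipolar brush cells were present in these neurons and lower with *Sst*, *Eomes* at 27.5 ± 16.4 against 50.2 ± 15.1 CPM (SD, n = 6) and *Otx2* at 27.6 ± 10.6 against 70.0 ± 26.6 CPM. Median UMIs per cell were higher with *Sst* in each library, 27962 against 21013 in control replicate 1. With cells matched on UMIs, 495 genes were higher and 547 lower. All 4 astrocyte markers tested were called, *Slc1a3* higher (52.9 ± 7.20 against 29.8 ± 8.28 CPM) and *Fabp7*, *Slc1a2* and *Sox9* lower. Of 10 immediate early and dissociation genes, *Fos*, *Ier5*, *Junb* and *Npas4* were higher and *Egr1* and *Ier2* lower. The part of these markers in the result was not tested. A gene was tested if at least 10% of the neurons of either class held it, which favored a call in genes that passed through 1 class alone. Of the 617 genes higher, 89 (14.4%) were under that limit in neurons without *Sst*, and of the 646 lower, 62 (9.6%) were under it in neurons with *Sst*.

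Of the 7 genes raised at P5, *Ebf1*, *Gm11549*, *Prdm6* and *Col11a1* passed the detection filter at E18.5 and were called higher with *Sst*. *Pnoc*, *Galr1* and *Aldh1a1* did not pass it. *Gm11549*, at 6.22 ± 2.35 CPM with and 0.412 ± 0.451 CPM without, passed it through the neurons with *Sst* alone, so nothing is read from the number of tested genes that were higher. Among the few E18.5 cells that met the P5 rule, *Pnoc* was in 0%, 0% and 0% in controls. In *Atoh1S193A/-* it was in 9.09%, 0% and 15.4%, against 53.2% and 49.8% of *Sst*-high cells at P5. In the same E18.5 cells *Ebf1* was in 69.2 to 100%. *Ebf1* was at 695, 508 and 649 CPM with *Sst* and 270, 249 and 286 CPM without in controls. In *Atoh1S193A/-* it was at 538, 388 and 588 CPM with and 259, 238 and 196 CPM without. The 2 ranges did not overlap, and the log2 difference was 1.20 (SE, 0.11; adjusted p = 0.0011). *Sostdc1* was higher by 1.46 on the log2 scale (SE, 0.24; adjusted p = 0.012), at 81.0 ± 15.5 against 32.4 ± 12.1 CPM (SD, n = 6). It was higher by 0.77 (adjusted p = 0.0042) without neurons holding other markers and lost its call at *Sst* >=10 (1.46; adjusted p = 0.073). *Col11a1* was higher by 1.32 (SE, 0.07; adjusted p = 5.9e-15) and *Prdm6* by 1.13 (SE, 0.16; adjusted p = 8.5e-06). *Prdm6* was higher in 6 of 6 libraries, although its ranges, 10.7 to 32.6 CPM with and 8.11 to 17.5 CPM without, overlapped. *Phlda1*, the gene lowered at P5, was at 248 ± 26.1 CPM with and 259 ± 18.9 CPM without (log2 difference, -0.05; SE, 0.05; adjusted p = 0.51). Without *Pax6* and *Hox* genes in the gate it was called the other way, higher with *Sst* by 0.34 (adjusted p = 0.031). Of the 9 genes lowered at P5 at a limit of 1.5-fold, 8 were tested at E18.5. Of these 5 were lower, against 6.21% of all genes, *Lsamp* at 117 ± 18.4 against 218 ± 20.9 CPM. The other 3 were not called, *Ntng1* among them (24.8 ± 12.3 against 25.8 ± 8.59 CPM; log2 difference, -0.06; adjusted p = 0.91). Of the 22 genes raised at that limit, 13 were tested and 9 were higher, against 5.93% of all genes. *Gm11549* and *Trpc7*, among the 9, passed the filter through neurons with *Sst* alone, so nothing is read from that number.

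**Figure D4:**
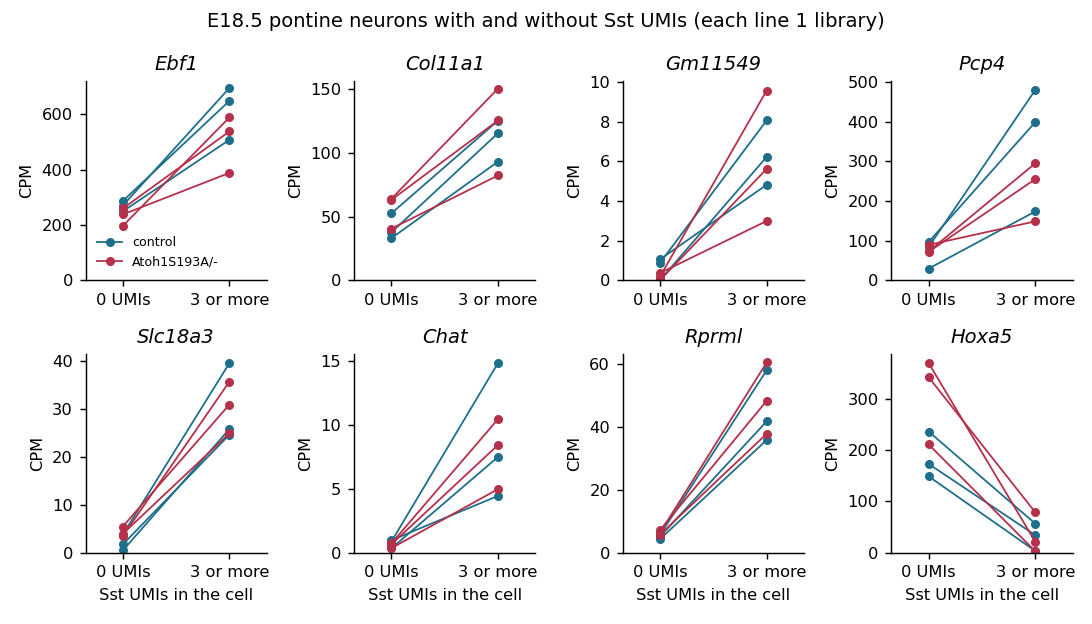
CPM of 8 genes in E18.5 neurons with no *Sst* UMI and with 3 or more, with each line joining the 2 classes of one of the 6 libraries, colored by genotype. *Ebf1*, *Col11a1*, *Gm11549*, *Pcp4*, *Slc18a3*, *Chat* and *Rprml* are higher with *Sst* in 6 of 6 libraries, and *Hoxa5* is lower in 6 of 6.

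The called genes with the largest rise were *Chat*, *Synpo2*, *Gm11549*, *C1qtnf3* and *Slc18a3*. Each passed the detection filter through neurons with *Sst* alone, being held by 10.4 to 36.5% of them and by 0.704 to 4.03% of neurons without, so their calls were favored by it and their levels are given without a p. *Slc18a3* was at 24.7, 25.8 and 39.6 CPM with *Sst* in controls and at 1.75, 0.492 and 3.801 CPM without. In *Atoh1S193A/-* it was at 35.7, 24.9 and 30.9 CPM with and 3.49, 3.97 and 5.48 CPM without. The 2 ranges did not overlap. *Chat* was at 8.45 ± 3.84 against 0.661 ± 0.262 CPM. *Synpo2*, an actin-binding synaptopodin, was at 5.14 ± 2.03 against 0.404 ± 0.281 CPM, and *C1qtnf3*, a secreted C1q family protein, at 6.89 ± 3.97 against 0.858 ± 0.409 CPM. *Slc5a7* (44.8 ± 6.30 against 40.4 ± 7.74 CPM) and *Ache*, the other cholinergic genes, did not pass the test. *Pcp4* was higher by 2.03 (SE, 0.22; adjusted p = 0.0023).

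The largest falls were those of *Hoxc5*, *Hoxa5*, *Grem1*, *Slit3* and *Cdh18*, which passed the filter through neurons without *Sst* alone (10.7 to 26.1% of these neurons, against 1.61 to 8.43% of those with *Sst*). *Hoxa5* was at 33.0 ± 30.3 CPM with *Sst* and 247 ± 90.1 CPM without, with ranges that did not overlap. *Hoxc5* was at 1.25 ± 0.854 against 8.44 ± 2.40 CPM. Of 11 *Hox* genes tested, 8 were called lower, against 6.21% of all genes, and 0 higher. *Hoxc5* and *Hoxa5* are among the 8 and *Hoxb2* to *Hoxb5*, among the 11, were used by the gate, so the count is not read as a result about the list. *Grem1* was at 2.52 ± 2.70 against 12.7 ± 4.03 CPM. *Slit3*, a ligand of Robo receptors, was at 3.17 ± 2.45 against 15.1 ± 3.38 CPM, and *Cdh18*, a cadherin, at 1.71 ± 1.20 against 8.42 ± 2.84 CPM.

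Other groups had calls in both directions, to be read against 5.93% of all genes called higher and 6.21% lower and with the same filter. Of 48 transcription factors, 9 were higher and 20 lower, *Rora* (24.8 ± 6.38 against 10.2 ± 2.73 CPM) and *Tshz2* (79.2 ± 15.6 against 32.8 ± 7.41 CPM) among the former and *Prox1* (49.8 ± 11.4 against 113 ± 19.9 CPM) among the latter. The gate required *Barhl1* and *Pax6*, which are among the 20 lower genes. Also among the 20 were *Atoh1*, *Nhlh2*, *Neurod1* and *Sox11*. The paper uses *Atoh1* as a marker of intermediate progenitors, and whether the 2 *Sst* classes differed in maturity was not tested. Of 17 genes for secreted signals and antagonists, 8 were higher and 3 lower. *Dkk2* was higher by 1.73 (SE, 0.11; adjusted p = 4.1e-15). Of 35 guidance genes, 14 were higher, *Epha4*, *Epha5*, *Epha6*, *Epha7* and *Ephb1* among them, and 9 lower, among these *Robo1*, *Robo2*, *Slit2* and *Slit3*. Of 6 peptide precursors tested, *Adcyap1* was higher (49.3 ± 7.67 against 33.5 ± 3.95 CPM), and *Nppc* and *Nts* were lower. *Sstr2*, a somatostatin receptor, was lower, at 18.51 ± 5.68 against 37.0 ± 14.8 CPM, and *Grpr* was higher, at 21.8 ± 7.16 against 8.52 ± 1.95 CPM. Of the inhibitory genes, *Gad2* was at 40.3 ± 12.6 against 62.2 ± 20.9 CPM (adjusted p = 0.07). *Satb1* was lower by 0.73 on the log2 scale, at 50.8 ± 7.93 against 83.7 ± 6.39 CPM. Of the 10 PN1 markers, 7 of 8 tested were higher and 0 lower.

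Unlike the P5 rule, this division left in neurons with other markers. *Etv1* was higher with *Sst*, at 38.4 ± 15.8 against 11.1 ± 4.08 CPM, and *Hoxb5* lower, at 25.7 ± 8.31 against 73.1 ± 13.5 CPM. Without the neurons holding *Nr2f2*, *Etv1*, *Hoxb5* or *Cdkn1c* above the P5 limits, 270 genes were higher and 190 lower, of which 222 and 150 were among the calls above.

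The share of E18.5 PN-gated neurons with at least 3 *Sst* UMIs was 17.6%, 18.3% and 21.6% in controls and 24.7%, 22.2% and 23.7% in *Atoh1S193A/-*. The ranges did not overlap, and the means, 19.2 ± 2.16% and 23.5 ± 1.30% (SD, n = 3), differed by 4.37 percentage points. With at least 10 *Sst* UMIs the means, 11.6 ± 1.46% and 12.6 ± 2.55%, differed by 1.01 points (exact permutation p = 0.7). For 3 UMIs the exact two-sided permutation p of 0.1 is the smallest that 3 libraries against 3 can give, and the exact sign-flip test over littermate pairs gave 0.25, also its smallest. The *Sst* level over all of these neurons was 315, 199 and 242 CPM in controls and 268, 186 and 222 CPM in *Atoh1S193A/-*, with overlapping ranges (log2 difference, -0.16).

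Over all PN-gated E18.5 neurons, edgeR called 0 of 10296 genes higher (0%) and 0 lower (0%) in *Atoh1S193A/-*, with 210 and 242 at an unadjusted p under 0.05, and DESeq2 called 2 and 5. Blocking on litter numbers, edgeR called 14 higher and 19 lower (33, or 0.321%), *Sostdc1* among the former (log2 difference, 0.62; adjusted p = 0.0018). Without the block its adjusted p was 1.0 (log2 difference, 0.60; SE, 0.16). It was at 32.5, 32.4 and 45.7 CPM in controls and 55.8, 50.2 and 64.4 CPM in *Atoh1S193A/-*, and the 2 ranges did not overlap.

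The difference was found in the neurons without *Sst*. There *Sostdc1* was at 19.8, 22.6 and 21.8 CPM in controls (21.4 ± 1.47, SD, n = 3) and at 42.4, 44.4 and 43.6 CPM in *Atoh1S193A/-* (43.5 ± 1.01). It was the single gene called of 10249 (0.00976%), with a log2 difference of 1.01 (SE, 0.11; adjusted p = 0.0035), and under that block 51 genes (0.498%) were called, *Sostdc1* again among them (adjusted p = 0.00016). In the neurons with *Sst* it was at 69.1, 72.1 and 99.3 CPM in controls and 76.7, 66.8 and 102 CPM in *Atoh1S193A/-*, with ranges that overlapped (log2 difference, 0.01; SE, 0.19; adjusted p = 1.0). There 0 of 10490 genes (0%) were called by edgeR without and 8 (0.0763%) with the block. *Sostdc1* was thus 3.497, 3.19 and 4.55 times as high with *Sst* as without in the control libraries and 1.81, 1.505 and 2.33 times in *Atoh1S193A/-*. The interaction of genotype and *Sst* class was -1.01 on the log2 scale (SE, 0.16; adjusted p = 0.0021), 1 of 8 such calls among 10408 genes (0.0769%). The call was lost under 6 of the other settings: without control replicate 3 (-0.79; adjusted p = 0.058), without neurons holding other markers (-0.67; adjusted p = 1.0), at *Sst* >=10 (-1.54; adjusted p = 0.051), matched on UMIs (-0.92; adjusted p = 0.14), without *Pax6* and *Hox* genes (-0.62; adjusted p = 0.19) and by DESeq2 (-0.99; adjusted p = 0.60). These fits were added after the data were seen. The neurons without *Sst* mix several classes. The paper reports a reduced share of its ePN1 subtype in *Atoh1S193A/-* at E18.5 and matches it to a P5 subtype marked by *Cdkn1c*. By its account the shares of the other ePN subtypes did not change significantly. At P5, *Cdkn1c* neurons held 15.5 and 12.3 CPM of *Sostdc1*. Whether a changed make-up enters the genotype difference in *Sostdc1* or in the *Sst* share was not tested.

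**Figure D5:**
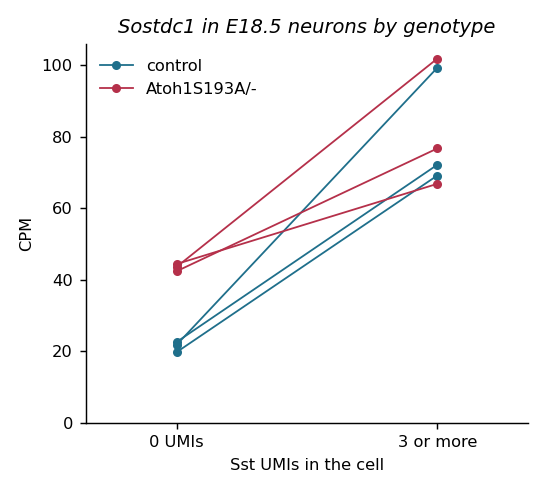
*Sostdc1* CPM in E18.5 neurons with no *Sst* UMI and with 3 or more, with each line joining the 2 classes of one library (3 control, 3 *Atoh1S193A/-*). Without *Sst*, the 3 *Atoh1S193A/-* libraries lie at 42.4 to 44.4 CPM, above the controls at 19.8 to 22.6 CPM, and with *Sst* the genotypes overlap.

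In cells without *Sst* UMIs, 12.9%, 13.1% and 15.7% held a *Sostdc1* UMI in controls and 22.1%, 20.3% and 24.02% in *Atoh1S193A/-*. With each cell thinned to 8000 UMIs these shares were 7.66%, 8.56% and 9.11% against 13.7%, 17.4% and 16.1%. In cells with *Sst* the thinned shares were 26.7%, 33.3% and 29.5% against 33.0%, 32.6% and 31.9%. Thinning left out 1 cell of each class, and the genotype ranges stayed apart without *Sst* and overlapped with it.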

How the data were processed

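Raw UMI counts per gene and barcode were deposited by the authors as filtered matrices (31054 gene rows; Cell Ranger 5.0.1, mm10 with the WPRE reporter sequence, per the labels; 3.1.0 for 2 E14.5 controls, used in no test). The P5 libraries held 15821 and 9586 barcodes and 236964126 and 160411671 UMIs, and shared 38 barcodes (0.396%). E18.5 libraries held 108239001 to 183911797 UMIs, and pairs shared 20 to 49 barcodes. No other samples' columns were present (0). Cells were classed by UMI limits with no clustering. Doublets were scored by Scrublet (scanpy 1.11.5) and kept, or the highest 7.5% removed as an alternative. The cells, gene lists and tests were chosen with earlier results of these data known.

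P5 counts were summed per class and library, scaled to CPM and compared as log2(CPM + 1) with no test. E18.5 sums were tested with edgeR 4.0.16 (R 4.3.3; quasi-likelihood, TMM, library as block for the *Sst* classes; genes detected in 10% or more of a class's cells), and DESeq2 1.42.0 as an alternative. The edgeR fits were also run on simulated counts, with outcomes not reported here. A call needed an adjusted p under 0.05 and a log2 difference of over 0.25 in size. Shares were tested by full enumeration with numpy 2.4.6, and scipy 1.17.1 gave the Clopper-Pearson intervals. E18.5 replicate numbers mark littermate pairs. Deviations of same-numbered libraries from their group means correlated at 0.461, 0.211 and 0.583. The P5 libraries are separate pools. In tests without a block, p-values measure the spread between libraries. In tests blocked on library or litter, they measure how the differences within libraries or litters vary. Named were *Sst*, *Pnoc*, *Sostdc1* and *Ebf1*, up to 15 raised and 10 lowered genes, peptide precursors at 10 CPM, transmitter and *Ebf* genes, up to 4 extremes of each other list, and the 5 largest rises and falls called at E18.5. Other genes were named after their values were seen. Some listed genes are not reported here. Alternatives covered the *Sst* and *Mapt* limits, pseudocount, filters, depth, doublets and each library left out.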

Additional observations from a re-analysis of the deposited data

Results flagged for a closer look

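At E18.5, the difference between neurons with and without *Sst* UMIs was itself different between the genotypes in 8 of 10408 genes by an interaction term in edgeR, with adjusted p-values under 0.05. The value given is the log2 difference between the classes in *Atoh1S193A/-* minus that in controls. *Sostdc1*, the secreted BMP and WNT antagonist, had -1.01 (SE, 0.16; adjusted p = 0.0021). *Klhl1*, a kelch family gene, had -0.96 (SE, 0.18; adjusted p = 0.015), and *Akap12*, an A-kinase anchor, -0.67 (SE, 0.13; adjusted p = 0.015). *Ntng1*, netrin-G1, had -1.11 (SE, 0.24; adjusted p = 0.042), although its ranges overlapped between classes. *Resp18* had -0.58 and *Enc1* -0.42 (both adjusted p = 0.042). *Bcl11b*, a zinc-finger transcription factor, had 0.76 (SE, 0.15; adjusted p = 0.019), and *Nrp1*, a semaphorin receptor, 0.46 (SE, 0.09; adjusted p = 0.02). Under 14 other settings the call was lost in 9 for *Ntng1*, *Resp18*, *Enc1* and *Nrp1*, in 8 for *Akap12*, in 7 for *Klhl1* and in 6 for *Bcl11b* and *Sostdc1*, and the sign turned in 1 more for *Ntng1* (0.23) and *Bcl11b* (-0.087). The number of genes called depended on the setting, from 1 to 47. It was 1 without control replicate 1 and 37 without *Atoh1S193A/-* replicate 1. What underlies these differences was not tested.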

How the results depend on the processing

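The genotype difference in the E18.5 share was 3.58 to 5.60 percentage points with each library left out and 4.37 with the block, but 1.01 (exact permutation p = 0.7) with *Sst* >=10. Alternatives that moved a count or share by more than 1.5 times or more than the replicate spread follow, and the cause was not tested. With *Sst* >=15 or >=50 the P5 share was 21.2% or 9.62% (777 cells). It was 17.4% without high doublet scores, 24.4% without limits on the other markers and 18.1% after thinning. By single library it was 16.2 to 17.1%, with 526 to 809 cells. Raised genes numbered 2 with a pseudocount of 10, 11 in cells of 8000 to 20000 UMIs, 22 at 1.5-fold and 12 with other classes at 4 *Sst* UMIs or fewer, and 9 to 14 by single library. Lowered genes numbered 3 with a pseudocount of 0.1, 3 in cells of 8000 to 20000 UMIs and 9 at 1.5-fold, and 2 to 4 by single library. For E18.5 *Sst* classes, genes higher and lower were 1083 and 1092 with *Mapt* >=10, 1163 and 1179 without *Pax6* and *Hoxb2* to *Hoxb5*, 357 and 324 by DESeq2 and 270 and 190 without neurons holding other markers, and leaving out each library gave 465 to 687 and 452 to 618. By genotype they were 2 and 5 by DESeq2, 32 and 44 without a gene filter, 14 and 19 with the replicate block, and 0 to 0 and 0 to 1 with each library left out. Signs turned for *Phlda1* by *Sst* class (0.15 with *Mapt* >=10, 0.34 and called higher without *Pax6* and *Hox* genes, 0.001 matched on UMIs, 0.0014 without other markers). They also turned for *Sst* by genotype (0.053 with *Mapt* >=10; -0.29 to 0.0065 with each library left out), for *Phlda1* by genotype (0.031 with *Mapt* >=10) and, without neurons holding other markers, for the interactions of *Ntng1* (0.23) and *Bcl11b* (-0.087). *Sostdc1* by *Sst* class lost its call at *Sst* >=10 (1.46, adjusted p = 0.073).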

Other observations

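*Krt2*, a keratin gene, was at 19.0 and 22.4 CPM in P5 *Sst*-high cells against 9.74 and 9.66 CPM in *Etv1* neurons, the nearest class, and was higher in *Sst*-high cells than in each other class by at least 1.5-fold. *Hapln1*, a link protein of the extracellular matrix, was at 13.5 and 11.5 CPM against 5.64 and 5.68 CPM in no-marker neurons. *Krt2* and *Hapln1* averaged under 10 CPM over the other classes, so they passed that limit through the *Sst*-high cells alone. *Nrgn*, neurogranin, was lower in *Sst*-high cells at P5, at 35.5 and 36.2 CPM against 66.9 and 66.4 CPM in *Etv1* neurons, but did not pass the test between *Sst* classes at E18.5 (17.6 ± 15.3 against 11.0 ± 3.84 CPM, SD, n = 6). These genes were named after their values were seen.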
